A study of Mus musculus with 3 samples.

Results

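The primitive endoderm is the extraembryonic layer that separates from the epiblast within the inner cell mass of the blastocyst and later forms the visceral and parietal endoderm of the yolk sacs. Its specification is known to begin with the zinc finger factor Gata6, which opposes the epiblast factor Nanog under FGF signals relayed by ERK, and to go on with the receptor Pdgfra and the factors Sox17, Gata4 and Sox7. Foxa2 and Hnf4a are regulators known from later endoderm. Cubn is an endocytic receptor of absorptive endoderm, and Dab2 is the adaptor that couples such receptors to clathrin. Dab2 is also known from trophectoderm, so it marks no single lineage.

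These 9 genes were followed by symbol in the blastocyst counts, where each was found on 1 row, 9 of 24063 genes in all. The study compared 1 library of C57BL/6 (B6) blastocysts with 2 libraries of blastocysts from NOD, the inbred strain that develops autoimmune diabetes. None of the embryos was treated, and the labels name no genetic modification in either strain. The labels give whole blastocysts as the input, whereas the paper's methods describe single inner cell masses. Embryo age, embryo sex and litter were not given, so that it is not known whether NOD 1 and NOD 2 are separate litters, and p-values measure only the spread between these samples. Counts on genes summed to 12505685 in B6, 33891715 in NOD 1 and 36171013 in NOD 2. Levels are given as CPM, counts scaled to the size of the library with TMM factors. A level compared between genes is further divided by the length of the counted transcript (CPM per kb). A count of 0 allows a level of up to 0.220 CPM in B6, 0.0908 CPM in NOD 1 and 0.0882 CPM in NOD 2 (3 counts), and these floors and all intervals cover counting error only.

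Markers of the neighbouring lineages were present in each library. The summed level of 16 trophectoderm markers was 4133 CPM in B6, 4303 CPM in NOD 1 and 3791 CPM in NOD 2, and that of 14 epiblast markers was 1146, 1233 and 1396 CPM. Sums over 8 leukocyte markers were 0.367, 0.363 and 1.47 CPM, over 5 red cell markers 0.954, 0.847 and 0.999 CPM, and over 7 cumulus and oviduct markers 0.220, 0.484 and 0.353 CPM. In such bulk samples, fewer cells of a type and less RNA per cell cannot be told apart.

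The promoters of Pdgfra, Dab2 and Cubn are shown because the letters that GATA factors are known to read can be looked for in them, beside the levels of Gata6 and Gata4. Each run is the 250 bases before an annotated RefSeq start (build GRCm38.p6), 5′ to 3′ on the strand of the gene, with the letters GATAA, searched on both strands, in capitals. For Dab2, the start of the counted transcript and an annotated start 86959 bases upstream of it are both given. Gata6 was left out of this step, and RefSeq promoters were found for 5 of the 9 genes.
Pdgfra, plus strand, chr5:75152001-75152250: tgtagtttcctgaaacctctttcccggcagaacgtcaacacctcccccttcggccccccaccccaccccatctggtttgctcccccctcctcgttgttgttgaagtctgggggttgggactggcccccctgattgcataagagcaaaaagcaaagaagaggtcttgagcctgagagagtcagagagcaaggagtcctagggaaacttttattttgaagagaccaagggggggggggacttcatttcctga
Dab2, counted start, plus strand, chr15:6386498-6386747: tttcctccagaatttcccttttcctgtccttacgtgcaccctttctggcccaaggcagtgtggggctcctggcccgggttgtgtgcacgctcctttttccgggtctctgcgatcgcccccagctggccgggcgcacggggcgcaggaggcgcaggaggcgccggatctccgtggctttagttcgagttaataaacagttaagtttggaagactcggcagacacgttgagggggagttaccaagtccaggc
Dab2, upstream start, plus strand, chr15:6299539-6299788: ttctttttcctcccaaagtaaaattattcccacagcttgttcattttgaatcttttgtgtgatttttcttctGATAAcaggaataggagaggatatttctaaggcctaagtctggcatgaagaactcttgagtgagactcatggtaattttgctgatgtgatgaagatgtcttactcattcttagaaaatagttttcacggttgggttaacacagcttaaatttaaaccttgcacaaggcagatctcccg
Cubn, minus strand, chr2:13491877-13492126: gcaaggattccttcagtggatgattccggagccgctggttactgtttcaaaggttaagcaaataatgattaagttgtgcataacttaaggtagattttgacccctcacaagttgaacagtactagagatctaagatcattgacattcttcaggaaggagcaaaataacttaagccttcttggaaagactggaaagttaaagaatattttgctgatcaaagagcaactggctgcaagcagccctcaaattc
GATAA occurred in 1 of these runs, 178 bases before the upstream start of Dab2, and 22.6% of 32851 promoters of this length hold it on either strand. None of the 4 runs held GGGCGG, the core that Sp1 is known to read (in 32.7% of promoters), or TATAAA, the letters near many start sites (in 12.4%), searched in the same way. A match is a description of letters and not a binding site. By GC content the Pdgfra run had 54.4%, the run at the counted start of Dab2 60.0% and that of Cubn 39.6%.

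The 9 genes fell into abundant, low and barely detected ones. Gata6 and Dab2 were among the more abundant transcripts in each library, Cubn, Pdgfra, Gata4 and Hnf4a were low, Sox17 and Sox7 were detected at the level of a few counts, and Foxa2 was not detected. Of the 9, 8 passed the filter on low counts and were tested (edgeR quasi-likelihood test, adjusted over 14456 genes), and calls needed a 2-fold change with an adjusted p under 0.05. Pdgfra was called higher in NOD, 1 of 8, while 10.3% of all genes tested were called higher. Gata6 was called lower, 1 of 8, while 7.39% of all genes were. Calls in either direction made up 17.7% of all genes, and 58.1% of them were higher, or 47.8% with total counts in place of TMM, which moved the median over all genes from 0.26 to 0.07 (log2). The shares of all genes called higher and lower were 7.17% and 7.83% with total counts, 20.8% and 15.2% with a filter of at least 1 CPM in 2 libraries, and 16.4% and 13.1% with DESeq2. The 3 genes Pdgfra, Gata4 and Dab2 were higher in both NOD libraries than in B6, the 3 genes Gata6, Cubn and Hnf4a were lower in both, and Sox17 and Sox7 were split. Among all genes tested, 45.3% were higher and 39.4% lower in both. The median log2 fold change of the 8 genes was 0.21, and -0.24 with the B6 level of Sox17 set to its floor, against the 0.26 over all genes tested.

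**Figure D1:**
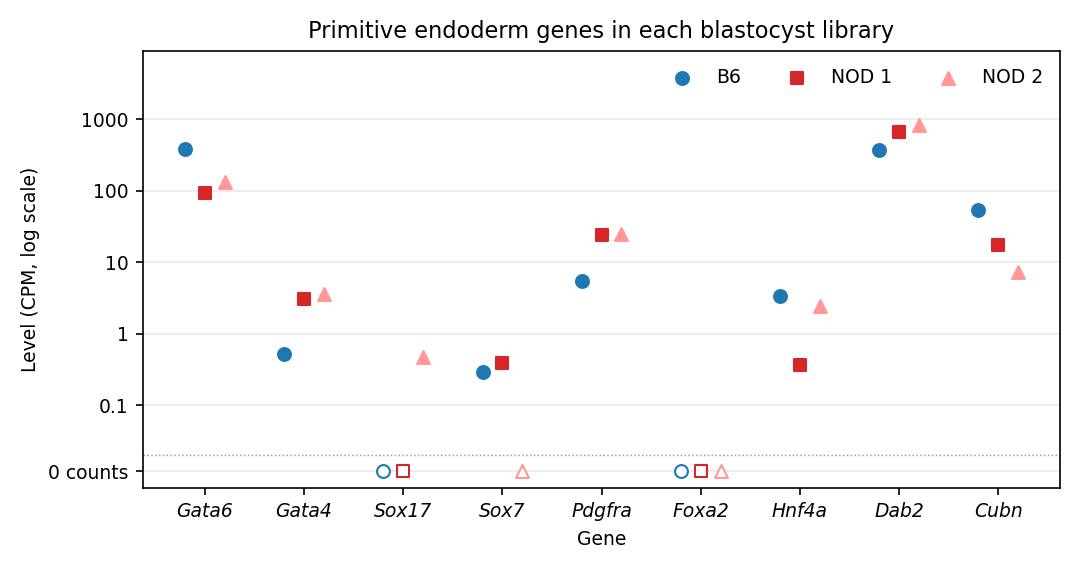
Level of each of the 9 genes (CPM, log scale) in the B6 library and both NOD libraries; open symbols on the lowest line are counts of 0. Gata6, Cubn and Hnf4a lie highest in B6, Pdgfra, Gata4 and Dab2 lie highest in NOD, and Foxa2 has no counts.

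Gata6, the factor at the head of the primitive endoderm program, had the highest length-scaled level of the regulators and fell in NOD. It had counts of 5248 (B6), 3024 (NOD 1) and 4419 (NOD 2), from libraries 2.71 and 2.89 times as deep. Its level was 385 CPM in B6, 91.5 CPM in NOD 1 and 129.9 CPM in NOD 2. Both NOD libraries were far below B6, and their own levels differed by a ratio of 1.42 (NOD 2 over NOD 1, exact 95% interval 1.35 to 1.49). Against the NOD mean of 111 ± 27.1 CPM (SD, n = 2), the log2 fold change was -1.80 (SE 0.29, edgeR adjusted p = 0.0285), or -2.07 with NOD 1 alone and -1.55 with NOD 2 alone. The call held in 7 of 9 settings, with the adjusted p going up to 0.0725. The 7 include the reported test and a prior count of 2, which has the same p-values. By length-scaled level, Gata6 stood above 96.4% of the genes in B6, 86.5% in NOD 1 and 88.9% in NOD 2.

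Gata6 (NM_010258, plus strand) lies on chromosome 18 (mm10) and at its 5′ end overlaps, by 93 exonic bases on the opposite strand, the noncoding gene 1010001N08Rik. Counting did not use strand, and 0.68% of the 50-base words of Gata6 transcripts also occur in that gene. 1010001N08Rik itself had 23.3 CPM in B6, 4.93 CPM in NOD 1 and 4.61 CPM in NOD 2, and was called lower as well (log2 fold change -2.28, SE 0.50, edgeR adjusted p = 0.0451). The transcripts nearest to Gata6 in profile over the 3 libraries, by Euclidean distance of centred log2(CPM + 0.5), were Eid2b (distance 0.0187), D430041D05Rik (0.0218) and Pon2 (0.0319). With 3 libraries such likeness is common, and 77 of 12295 genes lay within 0.2 of Gata6.

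Gata4, a factor that acts after Gata6 in the same lineage, was low in every library. It had counts of 7 (B6), 100 (NOD 1) and 120 (NOD 2), that is 0.514 CPM, 3.03 CPM and 3.53 CPM. Both NOD libraries were above B6 and differed little from each other (ratio 1.17, 0.886 to 1.54). The NOD to B6 ratio was 6.38 (exact 95% counting interval 3.05 to 16.1), and the log2 fold change of 2.66 (SE 1.14) did not pass the test (edgeR adjusted p = 0.154). Gata4 (NM_008092) spans chr14:63198915-63245260 on the minus strand (mm10), and no annotated gene overlaps it.

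Sox17 and Sox7, the SOX factors of early endoderm, were near the limit of detection. Sox17 (NM_011441, chr1:4490928-4497354, minus strand) had counts of 0 (B6), 0 (NOD 1) and 16 (NOD 2), the last of these 0.470 CPM. It passed the filter through NOD 2 alone, edgeR gave an adjusted p of 0.426, and the exact counting interval of its NOD to B6 ratio began at 0.783, so that no difference was detectable at this depth. Of 169 genes on the lists used here, Sox17 was 1 of 7 with 0 counts in B6 and NOD 1 and at least 10 in NOD 2, the others being Dab1, Foxa1, Pdgfrb, Rspo3, Sox18 and Srgn. The annotation has the gene Gm37587 on the opposite strand over 804 exonic bases of Sox17, so that its reads cannot be assigned to a strand. Sox7 (NM_011446, chr14:63943706-63950732, plus strand) had counts of 4 (B6), 13 (NOD 1) and 0 (NOD 2), or 0.294, 0.393 and 0 CPM. Its NOD to B6 ratio was 0.660 with an interval of 0.204 to 2.78, so that no difference was detectable at this depth.

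Foxa2 and Hnf4a, regulators of later endoderm, were absent or low and were not called. Foxa2 (NM_001291065, chr2:148042877-148045948, minus strand) had 0 counts in each of the 3 libraries, which allows levels up to the floors given above, and was not tested. Hnf4a (NM_008261, chr2:163547188-163572907, plus strand), a nuclear receptor of visceral endoderm and liver, had counts of 46 (B6), 12 (NOD 1) and 84 (NOD 2), or 3.38, 0.363 and 2.47 CPM. The NOD libraries lay far apart, with 6.80 times as much in NOD 2 as in NOD 1 (3.69 to 13.7). The log2 fold change was -1.25 (SE 1.37, edgeR adjusted p = 0.515), and -3.20 with NOD 1 alone against -0.44 with NOD 2 alone.

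Pdgfra, the receptor tyrosine kinase by which primitive endoderm cells are commonly recognised, rose in NOD, in the opposite direction to Gata6. It had counts of 75 (B6), 779 (NOD 1) and 836 (NOD 2), or 5.50, 23.6 and 24.6 CPM. The NOD libraries were almost equal (ratio 1.04, 0.944 to 1.15) and both lay far above B6. Against the NOD mean of 24.1 ± 0.707 CPM (SD, n = 2), the log2 fold change was 2.13 (SE 0.49, edgeR adjusted p = 0.0488), 2.10 with NOD 1 alone and 2.17 with NOD 2 alone. The call stands close to the threshold and was kept in 5 of 9 settings, with the adjusted p going up to 0.141. The 5 are the reported test, a prior count of 2 with the same p-values, DESeq2 size factors, 1 CPM in 2 libraries, and DESeq2. Pdgfra (NM_011058, plus strand) spans chr5:75152291-75198204 (mm10), and 652 of its exonic bases overlap the annotated genes Gm42802, Gm42803 and Mir7025.

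Pdgfa, the main PDGF ligand of the early embryo, changed the other way from its receptor. It had 290.5 CPM in B6, 88.3 CPM in NOD 1 and 58.3 CPM in NOD 2 and fell (log2 fold change -1.99, SE 0.33, edgeR adjusted p = 0.0291). The count of Pdgfra relative to Pdgfa within a library, which no scaling between libraries can move, was 0.0189 in B6, 0.267 in NOD 1 and 0.421 in NOD 2. Of the other ligands, Pdgfb had 3.74, 0.726 and 1.79 CPM and was not called (adjusted p = 0.329, edgeR), Pdgfd had 8 counts in B6 and 0 in both NOD libraries, and Pdgfc had none.

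Cubn, the endocytic receptor that takes up albumin and vitamin B12 complexes, was higher in B6 but did not pass the test. It had counts of 718 (B6), 570 (NOD 1) and 249 (NOD 2), or 52.7, 17.2 and 7.32 CPM. The groups did not overlap, yet NOD 2 had only 0.424 times the level of NOD 1 (0.364 to 0.493). The log2 fold change was -2.10 (SE 0.59, edgeR adjusted p = 0.0694), -1.61 with NOD 1 alone and -2.83 with NOD 2 alone. It was called lower with a filter of at least 1 CPM in 2 libraries (-2.13, adjusted p = 0.0126, edgeR) and by DESeq2 (-2.14, adjusted p = 0.00502). Cubn (NM_001081084) spans chr2:13276338-13491876 on the minus strand (mm10), and 368 of its exonic bases overlap Gm13270 on the opposite strand.

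Dab2, the clathrin adaptor, had the highest length-scaled level of the 9 genes in NOD. It had counts of 5058 (B6), 21505 (NOD 1) and 28048 (NOD 2), or 371, 651 and 824 CPM. Both NOD libraries exceeded B6, with 1.27 times as much in NOD 2 as in NOD 1 (1.24 to 1.29), and the NOD mean was 737 ± 123 CPM (SD, n = 2). The log2 fold change of 0.99 (SE 0.25, edgeR adjusted p = 0.0571) did not reach the 2-fold limit or the threshold, and Dab2 was called in 0 of 9 settings, over which its adjusted p ran from 0.00533 to 0.118. Dab2 (NM_023118, plus strand) spans chr15:6386748-6440709 (mm10), and 211 of its exonic bases overlap Gm18888 on the opposite strand.

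**Figure D2:**
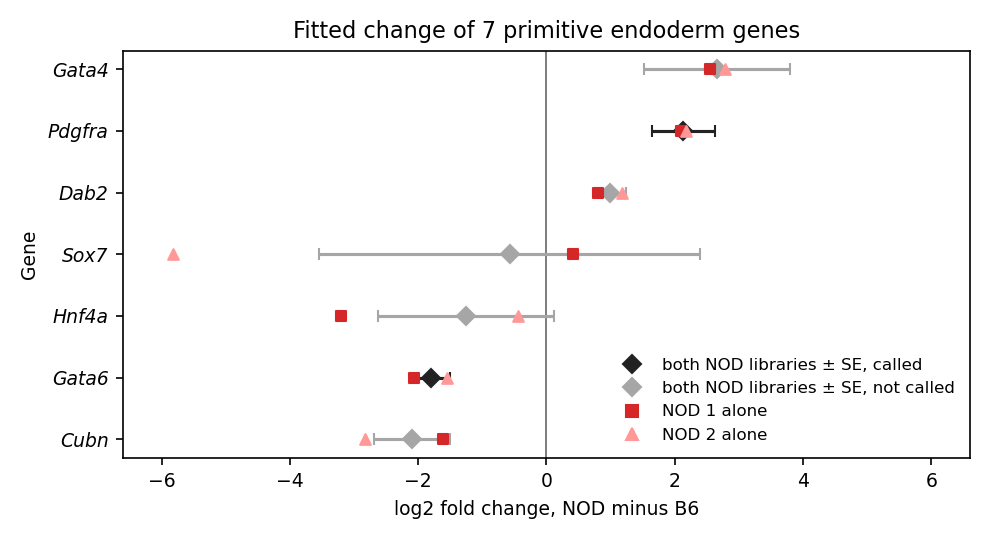
Fitted log2 fold change (NOD minus B6) of the 7 genes with counts in B6 that were tested; diamonds with bars are the fit of both NOD libraries ± SE, dark where called, and the coloured symbols use NOD 1 or NOD 2 alone. Pdgfra and Gata6 are the called genes, on opposite sides of 0, and for Sox7 the single NOD libraries lie on opposite sides.

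The order of the genes by length-scaled level was not the same in the strains. In B6 it was Gata6 at 121, Dab2 at 82.5, Cubn at 4.68, Pdgfra at 0.843, Hnf4a at 0.777, Gata4 at 0.152 and Sox7 at 0.0900 CPM per kb. Of these neighbours, Pdgfra and Hnf4a (ratio 1.09, 0.742 to 1.60) and Gata4 and Sox7 (1.69, 0.429 to 7.86) did not differ beyond counting error. In NOD 1, Dab2 at 145 CPM per kb stood 5.03 times above Gata6 at 28.7, followed by Pdgfra at 3.61, Cubn at 1.53 and Gata4 at 0.894. In NOD 2, Dab2 reached 183 CPM per kb and Gata6 40.8, followed by Pdgfra at 3.76, Gata4 at 1.04 and Cubn at 0.65. Cubn and Gata4 thus changed places between the NOD libraries, and below them Sox7 and Hnf4a in NOD 1, and Cubn and Hnf4a in NOD 2, did not differ beyond counting error.

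The summed level of the 9 genes was 819 CPM in B6, 787 CPM in NOD 1 and 993 CPM in NOD 2, a NOD to B6 ratio of 1.09. What made up this sum differed, since Dab2 gave 45.3% of it in B6 and 82.7% and 83.1% in NOD, whereas Gata6 gave 47.0% in B6 and 11.6% and 13.1% in NOD. Without Dab2, the sum was 448 CPM in B6, 136 CPM in NOD 1 and 168 CPM in NOD 2, a ratio of 0.340. Without Gata6 as well, it was 62.4, 44.6 and 38.4 CPM. Pdzk1, Glo1 and Trip10 had the profiles nearest to the full sum, but 448 of 12296 genes lay within a distance of 0.2 of it.

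Ratios of counts within a library do not depend on scaling, and they separated the strains for several pairs. These pairs were chosen with values known, and the ratios are given without a test. Gata6 to Nanog was 3.25 in B6, 0.421 in NOD 1 and 0.386 in NOD 2, that is 8.06 times higher in B6 than in the NOD mean of 0.403 ± 0.0249 (SD, n = 2). Nanog itself had 118, 217 and 337 CPM and did not pass the test (log2 fold change 1.23, edgeR adjusted p = 0.0752), though it was called higher in 2 of 8 alternatives. Relative to Sox2, an epiblast factor that fell in NOD (49.8, 5.75 and 9.61 CPM, log2 fold change -2.70, edgeR adjusted p = 0.0327), Gata6 was lower in B6, at 7.73 against 15.9 and 13.5. The ratio of Gata6 to an epiblast factor therefore turned with the factor chosen.

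Among the 9 genes, Pdgfra to Gata6 was 0.0143 in B6 (exact 95% interval 0.0112 to 0.0179), 0.258 in NOD 1 and 0.189 in NOD 2, so that the NOD mean was 15.6 times that of B6. Gata4 to Gata6 was 0.00133 in B6 (0.000536 to 0.00275), 0.0331 in NOD 1 and 0.0272 in NOD 2. The summed 9 genes relative to the summed epiblast markers gave 0.715, 0.638 and 0.711, and relative to the trophectoderm markers 0.198, 0.183 and 0.262. For both sums, the NOD mean differed from B6 by less than the NOD libraries differed from each other, but this rests on how the sums were formed. The epiblast ratio, NOD over B6, was 0.944 as given, 0.526 with length-scaled levels, 0.562 without the marker Tfcp2l1 and 0.295 without Dab2, and the trophectoderm ratio was 1.12 as given and 0.351 without Dab2.

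**Figure D3:**
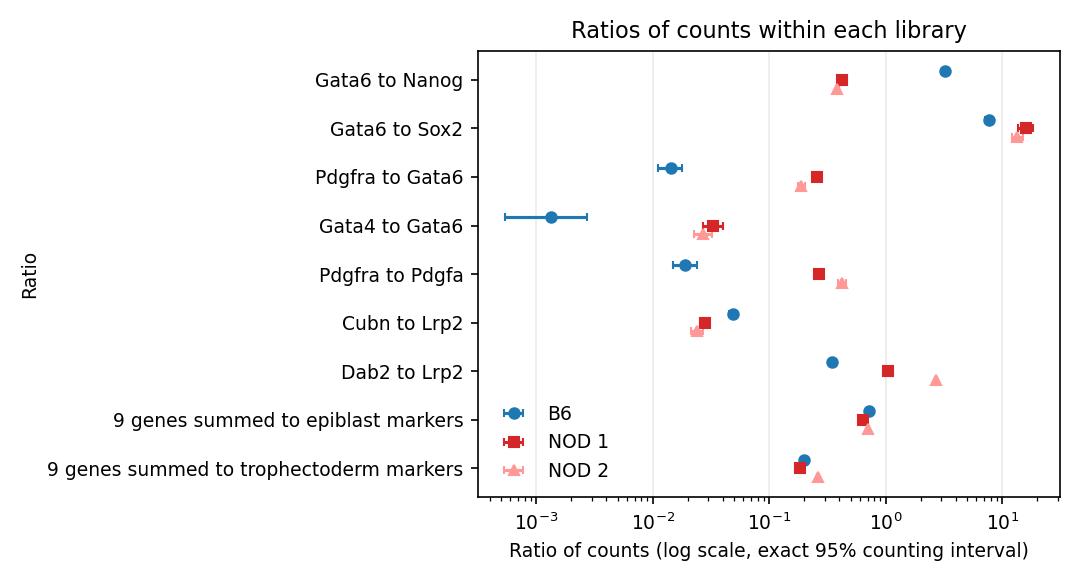
Ratio of counts within each library (log scale) with exact 95% counting intervals, for pairs of genes and for the 9 genes summed against epiblast and trophectoderm markers. B6 stands apart from both NOD libraries for Gata6 to Nanog, Pdgfra to Gata6, Gata4 to Gata6 and Pdgfra to Pdgfa. For the summed epiblast ratio, B6 is at 0.715 against 0.638 and 0.711, and the NOD over B6 value of 0.944 is 0.295 without Dab2, which the plot does not show.

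Of 26 FGF and ERK genes tested, feedback genes of the pathway included, 1 was called higher and 2 lower. Among all genes, 10.3% and 7.39% were, and the median log2 fold change of the 26 was -0.19. The lower calls numbered 4 with total counts (7.83% of all genes), 5 with DESeq2 (13.1%) or at least 1 CPM in 2 libraries (15.2%), and 0 without a filter or with limma-voom. Of the genes called lower, Map2k2, an ERK kinase, had 323 CPM in B6, 108 CPM in NOD 1 and 116 CPM in NOD 2 (log2 fold change -1.53, adjusted p = 0.0257, edgeR), and Spry2, a feedback inhibitor that ERK induces, had 36.8, 7.72 and 7.67 CPM (-2.26, adjusted p = 0.0351, edgeR). The feedback phosphatases Dusp4 (52.3, 18.7 and 17.3 CPM, adjusted p = 0.0509) and Dusp6 (40.9, 15.4 and 12.1 CPM, adjusted p = 0.0600) were lower in both NOD libraries and were not called in the reported edgeR test. Dusp4 was called lower in 4 of 8 alternatives, edgeR with total counts among them (adjusted p = 0.0476), and Dusp6 in 2, edgeR with at least 1 CPM in 2 libraries (adjusted p = 0.0227) and DESeq2.

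The ligand Fgf4, which the epiblast is known to secrete, had 5.65, 8.71 and 20.4 CPM (log2 fold change 1.37, edgeR adjusted p = 0.234). Of its receptors in the inner cell mass, Fgfr1 had 119, 35.7 and 49.3 CPM (-1.48, edgeR adjusted p = 0.0509; called lower in 4 of 8 alternatives), and Fgfr2, known from primitive endoderm, had 93.7, 115 and 73.7 CPM (0.01, edgeR adjusted p = 0.983), with a sign that turned under other scalings. Beside Map2k2, Hras (285, 188 and 165 CPM) and Nras (196, 211 and 199 CPM) were among those with the highest CPM of the list, and neither was called.

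**Figure D4:**
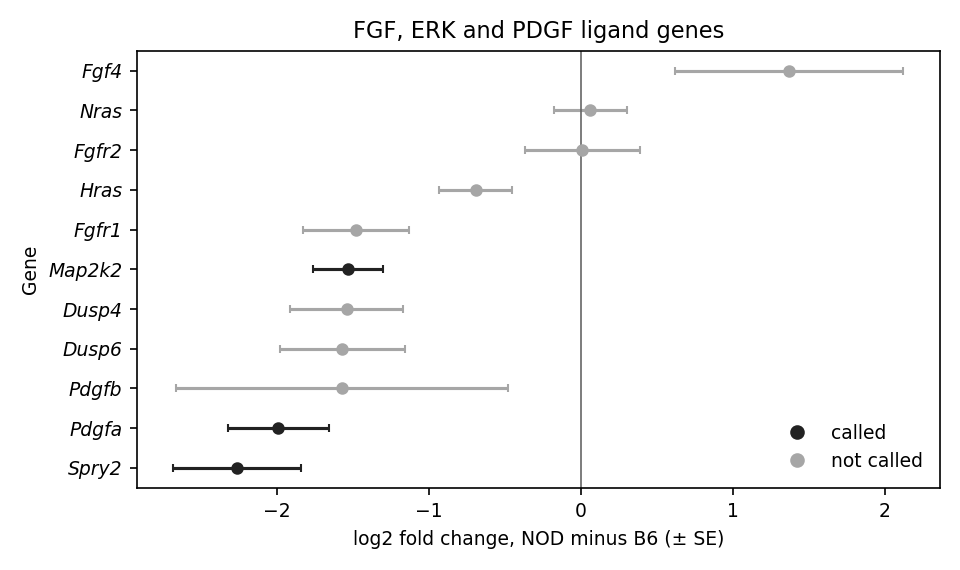
Fitted log2 fold change (NOD minus B6, ± SE) of the FGF and ERK genes named in the text and the tested PDGF ligands, dark where called. Map2k2, Spry2 and Pdgfa lie to the left of 0; the other genes shown were not called.

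The partners of Cubn and Dab2 in endocytosis moved in both directions. Lrp2 (megalin), the receptor that acts with Cubn, had 1074 CPM in B6, 618 CPM in NOD 1 and 304 CPM in NOD 2 (log2 fold change -1.22, edgeR adjusted p = 0.108), and was called lower in 2 of 8 alternatives. Amn, the membrane anchor of Cubn, had 9.25, 7.26 and 10.4 CPM (-0.07, edgeR adjusted p = 0.939). Within a library, Cubn to Lrp2 was 0.0491 in B6, 0.0279 in NOD 1 and 0.0241 in NOD 2, and Dab2 to Lrp2 was 0.346, 1.05 and 2.71.

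Of 19 such partner genes tested, 3 were called higher and 3 lower, with a median of -0.07, while 10.3% and 7.39% of all genes were called. With at least 1 CPM in 2 libraries, 5 of the 19 were called higher and 6 lower, beside 20.8% and 15.2% of all genes. The chaperone of these receptors, Lrpap1 (838, 3518 and 2551 CPM, log2 fold change 1.86, edgeR adjusted p = 0.0243), the early endosome GTPase Rab5a (7.27, 128 and 113 CPM, 4.05, adjusted p = 0.0196) and the clathrin light chain Cltb (10.8, 51.4 and 36.9 CPM, 2.03, adjusted p = 0.0470) rose in NOD. Ap2a2, a subunit of the clathrin adaptor AP-2, fell (1002, 325 and 329 CPM, -1.62, edgeR adjusted p = 0.0216), as did the endocytic factor Epn1 (119, 6.87 and 3.97 CPM, -4.46, adjusted p = 0.0203). Clta, a further clathrin light chain, was not called (655, 525 and 445 CPM). Cltb was no longer called with total counts or upper-quartile factors, and without a filter or with limma-voom no gene of the table was called.

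Further genes known from primitive endoderm did not share 1 direction either. Of 24 tested out of 27 listed, 2 were called higher and 3 lower, near the 10.3% and 7.39% of all genes, with a median log2 fold change of -0.11. The lysosomal proteases Ctsl (191, 566 and 496 CPM, log2 fold change 1.47, edgeR adjusted p = 0.0283) and Lgmn (75.4 CPM in B6, NOD mean 209.8 ± 13.8 CPM (SD, n = 2), 1.48, adjusted p = 0.0329) rose. The basement membrane gene Nid2 fell from 96.1 CPM in B6 to 2.33 and 2.35 CPM (-5.36, edgeR adjusted p = 0.0190). Klf5 (993, 415 and 281 CPM, -1.51, edgeR adjusted p = 0.0354) and Sall4 (500.2, 169 and 203 CPM, -1.43, edgeR adjusted p = 0.0287), factors shared with other lineages of the blastocyst, fell as well. Cited1, also among those with the highest CPM, was not called (185, 272 and 299 CPM).

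Genes of the later visceral endoderm, which Hnf4a and Foxa2 are known to regulate, gave 0 calls among 10 tested (edgeR), of 17 in the table, with 3 at an unadjusted p under 0.05, while 17.7% of all genes tested were called and 5763 of 14456 had such a p. Apoe was called higher by DESeq2 and by edgeR with at least 1 CPM in 2 libraries (16.4% and 20.8% of all genes), and limma-voom called 0. The highest CPM belonged to the apolipoproteins Apoe (99.4, 207 and 297 CPM) and Apoa1 (139, 117 and 47.4 CPM), followed by Rhox5 (0, 0.605 and 44.6 CPM) and Cited2 (9.25, 19.7 and 6.17 CPM). Afp, a secreted protein of visceral endoderm, had counts of 0 (B6), 31 (NOD 1) and 41 (NOD 2), or 0, 0.938 and 1.20 CPM. Ttr had counts of 19, 28 and 23, or 1.39, 0.847 and 0.676 CPM.

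Some markers of epiblast and trophectoderm changed beside these genes. Of 14 epiblast markers, Utf1, Zfp42, Tdgf1 and Gdf3 were called higher and Sox2 lower, while 10.3% and 7.39% of all genes were, and the alternatives that made calls gave 3 to 6 higher and 1 to 3 lower. Zfp42 lost its call with total counts (adjusted p = 0.0561, edgeR) and upper-quartile factors (adjusted p = 0.0600, edgeR). Of 15 trophectoderm markers tested, Dppa1 was called higher (209, 1405 and 1034 CPM, log2 fold change 2.54, edgeR adjusted p = 0.0212) and 0 lower, and Cdx2 had 84.2, 66.9 and 53.8 CPM (-0.48, edgeR adjusted p = 0.327). Lower calls among the trophectoderm markers numbered 3 with total counts (7.83% of all genes), with at least 1 CPM in 2 libraries (15.2%) and with DESeq2 (13.1%). Higher calls numbered 3 in the last 2 of these, in which 20.8% and 16.4% of all genes were called higher. The part of the epiblast and trophectoderm markers in the levels of Gata6, Dab2 and the other primitive endoderm genes was not tested.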

How the data were processed

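Blastocyst RNA was copied with the SMART-Seq v4 kit, amplified by 19 cycles of PCR without molecular identifiers, and sequenced as single reads of 50 bases. The authors aligned reads to mm10, which is a B6 genome, with STAR (2.2.0c per the labels; the paper gives another version) and counted them with HOMER on exons of 1 RefSeq transcript per gene, both strands together. The deposited table holds these counts unnormalised, 1 column per library. How reads that align to several places or differ from B6 were treated is not given in the sources used here.

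The counts were tested with edgeR 4.0.16 in R 4.3.3 (filterByExpr with a minimum count of 10, TMM, quasi-likelihood test with trended dispersion, Benjamini-Hochberg adjustment over 14456 genes), with 1 residual degree of freedom. Log2 fold changes are NOD minus B6. An exact permutation test of 1 library against 2 cannot go below p = 0.333. Alternatives were DESeq2 size factors, total counts, upper-quartile factors, no filter, at least 1 CPM in 2 libraries, DESeq2 1.42.0, limma-voom (limma 3.58.1), a prior count of 2, and each NOD library left out. The prior count of 2 changes fold changes only, so that its p-values are those of the reported test. Ratios carry exact Clopper-Pearson 95% intervals. Gene models and overlaps come from GENCODE M21.

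The 9 genes and all lists were chosen with earlier results of these data known. Named are these 9 genes, the called genes and up to 4 most abundant genes of each list, a few fixed genes (Nanog, Sox2, Fgf4, Cdx2, Fgfr1, Fgfr2, Pdgfa, Lrp2 and Amn), and the 3 profiles nearest to Gata6 and to the sum. Pdgfb, Pdgfd and Pdgfc, Dusp4, Dusp6, Afp, Ttr, 1010001N08Rik and the genes counted in NOD 2 alone were added after their values were seen. A few genes of these lists are counted but not reported here.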

Additional observations from a re-analysis of the deposited data

How the results depend on the processing

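With 1 B6 library, the spread is known from NOD only, and a fault of that library cannot be told apart from a strain difference. The B6 library, the least deep, had 0 counts of Sox17, 4 of Sox7, 0 of Foxa2 and 7 of Gata4. Counts of 0 also occurred in the deeper NOD libraries, for Sox17 in NOD 1, Sox7 in NOD 2 and Foxa2 in both. No paired analysis was possible because B6 has 1 library and shares fewer than 2 replicate numbers with NOD. Gata6, Pdgfra, Gata4, Dab2, Cubn and Hnf4a kept their direction in every setting tried.

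Of all genes, 0 were called in either direction without a filter (edgeR, 5568 at an unadjusted p under 0.05) and with limma-voom (3924), against 1483 higher and 1069 lower, 701 were lower with upper-quartile factors, 2442 were higher and 1778 lower with at least 1 CPM in 2 libraries, and 2365 and 1887 with DESeq2. Gata6 was then at -1.77 (adjusted p = 0.0725) without a filter and -1.82 (0.0670) with limma-voom, and was not called. Pdgfra was not called at 1.94 (0.0621) with total counts, 2.14 (0.0577) with upper-quartile factors, 2.15 (0.0833) without a filter and 2.12 (0.141) with limma-voom. The 9 genes thus gave 0 higher calls in these 4 settings, 0 lower calls without a filter and with limma-voom, and 2 lower calls with 1 CPM in 2 libraries and with DESeq2, where Cubn was called at -2.13 and -2.14. Sox17 and Sox7 were not kept with 1 CPM in 2 libraries and had no adjusted p in DESeq2. The median of the 9 genes, of which 8 were tested, was 0.04 with total counts, -0.16 with 1 CPM in 2 libraries, -0.41 with limma-voom and from 0.21 to 0.37 with 1 NOD library left out, where Sox17 ran from 0.00 to 6.51 and Sox7 from -5.82 to 0.42. Without Dab2, the NOD to B6 ratio of the sum was 0.340 in place of 1.09, 0.295 in place of 0.944 relative to epiblast markers and 0.351 in place of 1.12 relative to trophectoderm markers. The epiblast ratio was 0.526 with length-scaled levels and 0.562 without Tfcp2l1. The causes were not tested. The other 92 recomputed values kept their direction and stayed called or not called, or, where there was no test or only a count, moved by less than the limit set for it. Dab2, among these, passed the adjusted p alone with 1 CPM in 2 libraries (0.02) and with DESeq2 (0.00533), without a 2-fold call.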

Other observations

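The relatives of the 9 genes by family gave other profiles. Of 13 in the table, 10 were tested and 0 were called (edgeR; 17.7% of all genes tested), 1 at an unadjusted p under 0.05 (5763 of 14456 of all genes), while DESeq2 and edgeR with at least 1 CPM in 2 libraries called 1, Gata2, higher (16.4% and 20.8% of all genes), and limma-voom called 0. Gata3, the trophectoderm GATA factor, had 468 CPM in B6, 338 CPM in NOD 1 and 148 CPM in NOD 2 (log2 fold change -0.95, edgeR adjusted p = 0.219). Gata2, known from trophoblast, had 4.11, 12.7 and 23.8 CPM (2.15, edgeR adjusted p = 0.0859), and Gata1 had 13.3, 12.2 and 14.5 CPM (0.01, edgeR adjusted p = 0.990), with a sign that turned under other scalings.

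Of 7 genes known from parietal endoderm, 6 were tested and 0 were called (edgeR, against the same 17.7% of all genes), 2 at an unadjusted p under 0.05, while DESeq2 and edgeR with at least 1 CPM in 2 libraries called 1, Fbln1, lower (13.1% and 15.2% of all genes), and limma-voom called 0. Fbln1, a matrix protein, had 33.0, 6.90 and 11.6 CPM, and Plat, a secreted protease that parietal endoderm is known to make, had 4.70, 1.09 and 6.17 CPM. Snai1 (1.98, 0.696 and 2.38 CPM) was highest in NOD 2, and Plau (0.734, 3.93 and 0.118 CPM) was highest in NOD 1. The NOD libraries thus lay on both sides of B6 for Plat, Snai1 and Plau.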
